A study of Mus musculus with 24 samples.

Results

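Semaphorins, plexins and neuropilins were followed across the cortex and the neurosphere cultures of *Cep135* mutant and control mouse embryos. The 31 genes were chosen by family name. They were 20 semaphorins, 9 plexins and 2 neuropilins among the 54658 genes of the table.

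Semaphorins are secreted or membrane-bound guidance cues, and most of them act through plexins, single-pass receptors whose cytoplasmic domain switches off small GTPases of the Ras and Rap type. The secreted class 3 semaphorins mostly need a neuropilin as co-receptor to reach a class A plexin, while *Sema3e* binds *Plxnd1* directly. In the developing cortex these molecules are known for steering axons, for the radial migration and polarity of newborn neurons, and for patterning blood vessels.

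RNA was sequenced from 24 libraries in 8 groups of 3. Mutants were labelled *Cep135* (-/-) and null, and controls *Cep135* (+/+); *Cep135* encodes a centriole protein, and the allele that the study describes as null is a germline deletion of 8 bases in exon 2, present in every cell of the embryo. The mice were kept on a C57BL/6J background. The sample kinds were cortices at the embryonic days E11.5 and E14.5, and cortical progenitors of E14.5 embryos cultured for 12 h or 24 h, and no group received a drug. The cultures were dissociated with papain and grown as incipient neurospheres. Per the study, their medium held the growth factors EGF and FGF2, with heparin and supplements. The cultures came from the same 6 embryos as the E14.5 cortices, so cortex and cultures are not independent sets of animals. Each library is 1 embryo. Litter was read from the prefixes of the sample names. All E14.5 cortices and cultures shared a prefix that no E11.5 cortex had, so that age and litter cannot be told apart.

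Libraries held 4732781 to 11645213 reads on genes, and values are normalized read counts, reads divided by 1 size factor per library. Reads came from the 3′ ends of transcripts, which lie outside the deletion, and they do not check the genotype: *Cep135* lay at 171 to 376 in controls and at 173 to 336 in mutants. All 8 markers of postmitotic neurons and all 8 of apical progenitors had a mean of at least 10 in every group. So did all 6 ventral telencephalic markers, so this check does not tell cortex from ventral tissue. The cultures, labelled as cortical neural progenitors, held neuronal transcripts at the level of the E14.5 cortices, with a summed neuron level of 28055 to 45425 against 29955 to 42242. The E11.5 library of control F stood apart by a low summed level of 6 meningeal markers, 1963 against 3604 to 7868 in the other 5 E11.5 cortices. The summed level of 7 liver markers ranged from 1.57 to 1162 over the libraries, with both extremes in 12 h control cultures, and its part in the results was not tested. Embryo sex, read from transcripts, was not balanced between genotypes.

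Of the 31 genes, 29 reached the mean of 10 normalized read counts needed for a test in the cortices. *Plxnb3*, a class B plexin, was at 0 to 1.29 in cortices, and *Sema3b*, a secreted semaphorin, had a mean of 7.01 there. In the cultures *Sema3g*, a secreted semaphorin known from blood vessels, also fell under the mean of 10, with 0 to 4.87 in 12 h and 24 h libraries, which left 28 genes.

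A few genes that the results below turn on are shown here with the DNA before their transcription start. Each line gives the 250 bases upstream of a RefSeq start in the mouse build GRCm38.p6, 5′ to 3′ on the strand of the gene. The sequences belong to 3 semaphorins that rose strongly with age (*Sema6b*, *Sema6d*, *Sema7a*), to the semaphorin that rose most in culture (*Sema3e*) and to the co-receptor with the smallest p for genotype (*Nrp1*). Capitals mark the GC box GGGCGG or its reverse complement CCGCCC, bound by Sp-type factors, and the E-boxes CAGATG (or its reverse complement CATCTG) and CAGCTG, letters recognized by neuronal basic helix-loop-helix factors. None of these windows overlapped an annotated exon. The *Nrp1* window lies before a RefSeq start but inside the GENCODE span of the gene, which begins at 128358604.
Sema6b, chr17:56140344-56140593 (- strand): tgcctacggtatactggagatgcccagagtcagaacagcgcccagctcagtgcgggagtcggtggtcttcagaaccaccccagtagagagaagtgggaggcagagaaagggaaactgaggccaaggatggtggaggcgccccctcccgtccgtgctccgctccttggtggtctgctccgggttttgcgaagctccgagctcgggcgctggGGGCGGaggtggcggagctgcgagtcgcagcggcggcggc
Sema6d, chr2:124089719-124089968 (+ strand): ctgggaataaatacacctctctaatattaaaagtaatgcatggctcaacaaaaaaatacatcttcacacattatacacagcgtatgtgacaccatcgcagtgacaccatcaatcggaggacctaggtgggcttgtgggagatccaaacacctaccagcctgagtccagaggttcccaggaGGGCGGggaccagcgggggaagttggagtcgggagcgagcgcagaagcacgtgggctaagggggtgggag
Sema7a, chr9:57939862-57940111 (+ strand): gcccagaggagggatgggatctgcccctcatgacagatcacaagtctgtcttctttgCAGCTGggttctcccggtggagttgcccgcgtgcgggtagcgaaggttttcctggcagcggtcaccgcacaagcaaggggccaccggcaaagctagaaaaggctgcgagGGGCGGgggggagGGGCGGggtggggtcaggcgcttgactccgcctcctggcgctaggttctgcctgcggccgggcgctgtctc
Sema3e, chr5:14025026-14025275 (+ strand): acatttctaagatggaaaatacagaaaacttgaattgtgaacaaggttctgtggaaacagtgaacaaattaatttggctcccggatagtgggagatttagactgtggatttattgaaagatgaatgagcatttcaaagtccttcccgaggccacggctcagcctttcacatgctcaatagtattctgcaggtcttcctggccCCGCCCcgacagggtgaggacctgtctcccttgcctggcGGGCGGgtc
Nrp1, chr8:128358823-128359072 (+ strand): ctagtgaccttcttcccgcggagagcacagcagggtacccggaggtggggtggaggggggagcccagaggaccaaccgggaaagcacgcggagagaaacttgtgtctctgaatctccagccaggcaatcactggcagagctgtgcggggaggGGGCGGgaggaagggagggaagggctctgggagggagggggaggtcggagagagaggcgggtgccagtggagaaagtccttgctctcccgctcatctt

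These windows held 1 or 2 GC boxes each, and *Sema7a* alone among the 5 held an E-box. *Sema6b* and *Sema6d* each have a further RefSeq start that is not printed. The windows of those starts held 1 GC box for *Sema6b*, 0 for *Sema6d*, and no E-box. RefSeq starts were found for 26 of the 31 genes, in 37 windows, without *Plxna1*, *Plxna4*, *Sema3b*, *Sema3f* and *Sema6a*. Of these windows 27 of 37 (73.0%) held a GC box against 32.7% of all 32851 windows of the table. The median G and C content was 64.0% in the family's windows and 52.4% over all windows. Either E-box stood in 21.6% of the family's windows and in 25.5% of all windows. Among the windows of genes that were higher at E14.5, 5 of 21 held an E-box, and among those of tested genes that were not higher, 2 of 15. These matches describe letters only.

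The first comparison was between the 6 cortices at E14.5 and the 6 at E11.5, with genotype as a term. Most of the family was higher at E14.5: 17 of 29 tested genes were higher and 1 was lower at an adjusted p under 0.05 (limma, Benjamini-Hochberg over all 13650 genes tested). Over all genes tested the shares were 23.8% higher and 29.3% lower. The median log2 fold change was 0.78 over the 29 genes and -0.08 over all genes. In 13 of the 29 every E14.5 library exceeded every E11.5 library, which was so for 15.5% of all genes, and in 0 of the 29 every E14.5 library was below every E11.5 library, against 14.9% of all genes.

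**Figure D1:**
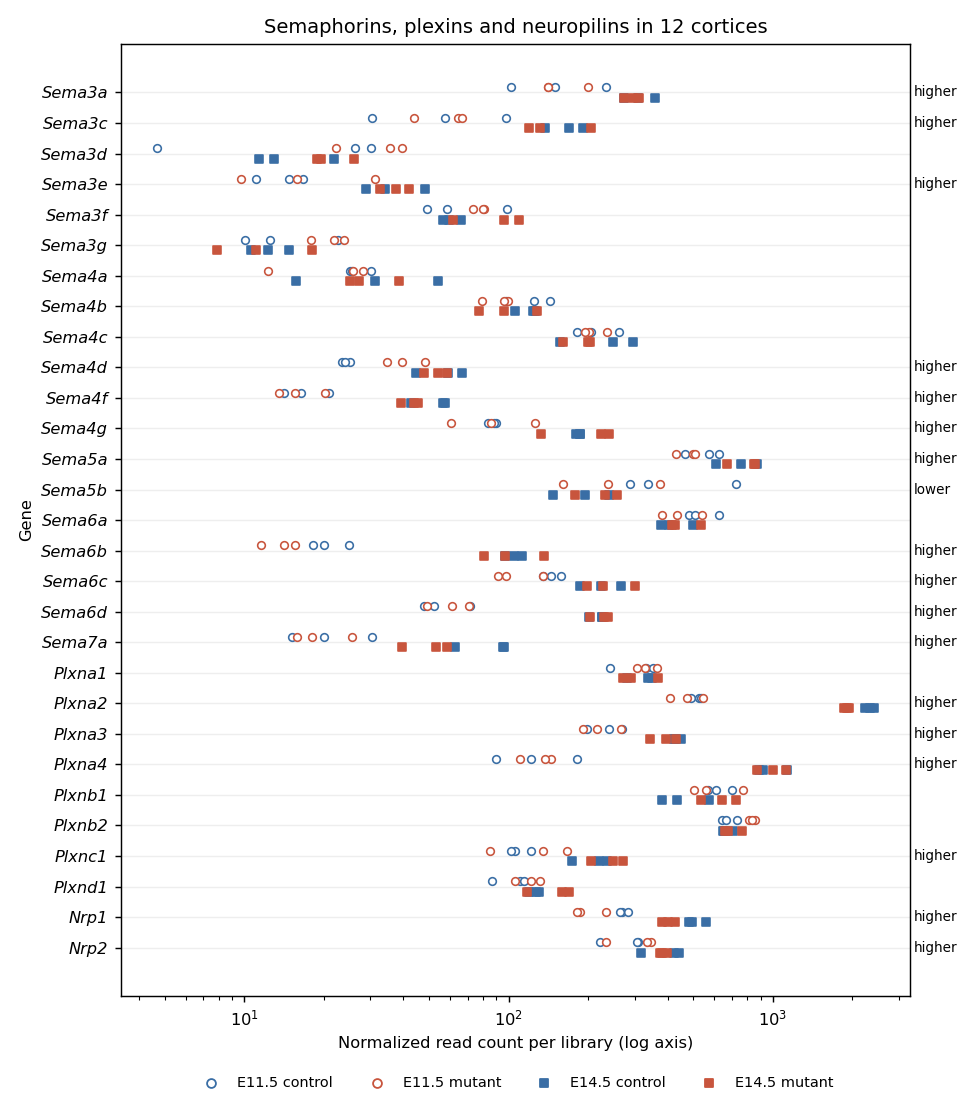
Normalized read counts of the 29 tested genes in 12 cortices, on a log axis, with 1 point per library (open circles, E11.5; filled squares, E14.5; blue, control; red, mutant). The words on the right mark the 17 genes that were higher and the 1 gene that was lower at E14.5 past the threshold; Plxna4, Sema6b and Plxna2 have the widest gaps between the ages.

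Among the ligands, the class 6 and 7 semaphorins moved most. *Sema6b*, a transmembrane semaphorin that binds class A plexins, had normalized read counts of 11.54 to 24.9 at E11.5 (median 16.9) and 80.7 to 136.6 at E14.5 (median 100.9). Its log2 fold change was 2.54 (SE 0.18, adjusted p = 9.06e-09, limma). *Sema6d*, another transmembrane ligand of *Plxna1*, rose from 47.7 to 71.5 (median 56.7) at E11.5 to 202.3 to 237.4 (median 226.2), a log2 fold change of 1.91 (SE 0.13, adjusted p = 4.95e-09, limma). *Sema7a*, a lipid-anchored semaphorin that signals through *Plxnc1* and integrins, lay at 15.1 to 30.3 at E11.5 (median 19.1) and at 39.5 to 96.5 at E14.5 (median 60.6). For *Sema7a* the log2 fold change was 1.62 (SE 0.22, adjusted p = 1.22e-05, limma). In all 3 genes the lowest E14.5 library stood above the highest E11.5 library. *Sema6c* also rose, by 0.88 on the log2 scale, whereas *Sema6a*, which was 0.15 lower on the log2 scale, did not pass the test.

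Of the 6 tested secreted semaphorins, 3 rose: *Sema3c* (log2 fold change 1.45), *Sema3e* (1.20) and *Sema3a* (0.95), the classical repellent that collapses growth cones. *Sema3f*, *Sema3d* and *Sema3g* did not pass, with log2 fold changes of 0.02, -0.32 and -0.49. Control F had the lowest E11.5 value of *Sema3c* (30.3), *Sema3d* (4.66), *Sema3a* (101.8) and *Sema3f* (49.0), beside its low meningeal sum. Without control F the count past the threshold stayed at 18 in all. The class 4 semaphorins, membrane-bound ligands of class B plexins and other receptors, gave 3 that rose of 6 tested: *Sema4f* (1.45), *Sema4g* (1.10) and *Sema4d* (0.78), with *Sema4a*, *Sema4b* and *Sema4c* between -0.05 and 0.32.

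The class 5 pair, transmembrane proteins with thrombospondin repeats, parted. *Sema5a* rose from 429.1 to 627.2 (median 504.2) at E11.5 to 609.4 to 875.3 (median 803.4) at E14.5, a log2 fold change of 0.57 (SE 0.11, adjusted p = 0.000542, limma). *Sema5b* lay at 161.3 to 725.0 at E11.5 (median 312.6) and at 147.4 to 257.4 at E14.5 (median 213.3). Its log2 fold change was -0.63 (SE 0.26, adjusted p = 0.0494, limma), the groups overlapped, and the highest value belonged to 1 E11.5 library, control E. Without control E the log2 fold change was -0.39 and the adjusted p was 0.114, and the call was also lost with edgeR (adjusted p = 0.0540) and DESeq2 (adjusted p = 0.0767).

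Among the receptors, 3 of 4 class A plexins rose. *Plxna4*, which with neuropilin 1 transmits *Sema3a* signals and also binds class 6 semaphorins, went from 89.7 to 181.5 (median 129.5) at E11.5 to 868.9 to 1132 (median 959.5) at E14.5. This was the largest change of the 29, a log2 fold change of 2.93 (SE 0.14, adjusted p = 2.07e-10, limma), or 7.64-fold on the scale of the count plus 1. *Plxna2* went from 407.4 to 546.5 (median 509.2) to 1863 to 2419 (median 2097), a log2 fold change of 2.09 (SE 0.08, adjusted p = 1.59e-11, limma). *Plxna3* rose by 0.84 on the log2 scale, and *Plxna1* differed by -0.02 without passing. The receptor of *Sema7a*, *Plxnc1*, rose by 0.93.

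Neither tested class B plexin, receptors of class 4 semaphorins, passed, with log2 fold changes of -0.14 for *Plxnb2* and -0.19 for *Plxnb1*. *Plxnd1*, the receptor of *Sema3e*, had a log2 fold change of 0.29 (adjusted p = 0.0521, limma). Both neuropilins rose, *Nrp1* by 0.96 (SE 0.09, adjusted p = 1.98e-07, limma) and *Nrp2* by 0.43 on the log2 scale (SE 0.12, adjusted p = 0.00807, limma). The age difference ran beside a shift in cell markers: the summed neuron level was 8819 to 13207 at E11.5 and 29955 to 42242 at E14.5, and the summed apical progenitor level was 14385 to 18131 and 9449 to 11292. Within the progenitor list *Slc1a3* went the other way, from 282.2 to 363.8 at E11.5 to 844.7 to 966.5 at E14.5. *Fabp7* also had higher means at E14.5, and the other progenitor markers had lower means. Meningeal markers had a median sum of 6014 at E11.5 and 2101 at E14.5, and the 6 ventral telencephalic markers lay at 935.3 to 1586 and 2283 to 2908. In such bulk samples more cells of a type and more RNA per cell cannot be told apart, and the part of these shifts in the changes of the family was not tested.

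In 25 intracellular effectors of plexin signalling, all tested, 11 were higher and 6 lower at E14.5, beside 23.8% higher and 29.3% lower of all genes. The collapsin response mediator proteins, which link plexin signals to microtubules, held the largest changes in both directions: *Dpysl3* (log2 fold change 1.86) and *Crmp1* (1.23) were higher, as was the GTPase gene *Rnd1* (1.11), while *Dpysl4* was lower (-1.46). The tyrosine kinase gene *Fes* (-1.30) and the adaptor gene *Gipc1* (-0.60) were also lower. Of 12 membrane partners of plexins and neuropilins, 5 were higher and 6 lower, beside the same shares of all genes. The adhesion molecules *Chl1* (3.25), *Cntn2* (2.89) and *L1cam* (2.18), which associate with neuropilins in axons, were higher, and the receptor tyrosine kinase gene *Erbb2* (-1.14), the pseudokinase gene *Ptk7* (-0.87) and the VEGF receptor gene *Flt1* (-0.49) were lower. The median log2 fold change was 0.18 for the effectors and -0.30 for the partners.

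The second comparison set the 6 cultures at 12 h against the 6 E14.5 cortices they came from, with genotype as a term. *Sema3e* had the largest change, a rise of 6.72-fold, the class A plexins *Plxna2* and *Plxna3* rose, and both neuropilins, *Plxnb2*, *Plxnc1* and *Plxnd1* fell. Of 28 tested genes 5 were higher and 8 lower (limma, adjusted p under 0.05), against 14.1% higher and 16.1% lower of all 13601 genes tested. The median log2 fold change was -0.27 over the 28 genes and -0.06 over all. In 3 genes all 12 h cultures exceeded all cortices (6.66% of all genes) and in 3 all were below them (7.76% of all genes). Leaving out 1 library at a time gave 8 to 14 genes past the threshold, with 8 without E14.5 mutant 2, and with the embryo as a replicate block it was 13, as without it.

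*Sema3e*, whose product acts on *Plxnd1*, had 28.8 to 48.2 normalized read counts in E14.5 cortices (median 35.9) and 161.7 to 311.2 in 12 h cultures (median 271.4). The 6 cultures were all above the 6 cortices, and the log2 fold change was 2.75 (SE 0.19, adjusted p = 4.85e-08, limma). Its receptor gene moved the other way. *Plxnd1* lay at 117.4 to 170.0 in cortices (median 128.5) and at 58.7 to 141.4 in cultures (median 88.7), a log2 fold change of -0.58 (SE 0.19, adjusted p = 0.0306, limma), and the groups overlapped.

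Of the class A plexins, *Plxna2* went from 1863 to 2419 (median 2097) to 2755 to 3450 (median 2966), with no overlap and a log2 fold change of 0.51 (SE 0.08, adjusted p = 0.000281, limma). *Plxna3* went from 343.7 to 450.0 (median 424.9) to 479.8 to 692.4 (median 562.3), again without overlap, and its log2 fold change was 0.44 (SE 0.11, adjusted p = 0.00708, limma). *Plxna4* and *Plxna1* did not pass, with log2 fold changes of 0.21 and -0.26. *Sema5b* (0.65, adjusted p = 0.0269, limma) and *Sema4b* (0.52, adjusted p = 0.0394, limma) completed the higher genes, with overlapping groups. The *Sema5b* call was lost when any of 5 libraries was left out, and that of *Sema4b* for any of 8.

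*Nrp1* lay at 379.8 to 557.6 in E14.5 cortices (median 455.3) and at 194.9 to 301.9 in 12 h cultures (median 247.1). All cultures were below all cortices, and the log2 fold change was -0.89 (SE 0.14, adjusted p = 0.000185, limma). *Sema5a*, at 609.4 to 875.3 (median 803.4) in cortices and 258.0 to 522.5 (median 478.6) in cultures, also showed no overlap, with a log2 fold change of -0.81 (SE 0.16, adjusted p = 0.00137, limma). *Plxnc1* fell by 0.81 (SE 0.17, adjusted p = 0.00245, limma) from 173.5 to 270.5 (median 228.0) to 99.4 to 197.3 (median 117.9), with overlap at 1 culture, control 4.

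Among the genes that fell, *Sema4f* had the largest estimate, -1.22 on the log2 scale (SE 0.38, adjusted p = 0.0226, limma), at low and scattered values: 39.2 to 57.3 (median 44.7) in cortices and 5.37 to 42.3 (median 23.9) in cultures. *Sema4g* went from 132.3 to 240.5 (median 185.8) to 44.8 to 160.9 (median 128.1), a log2 fold change of -0.75 (SE 0.25, adjusted p = 0.0311, limma). The calls for *Sema4f* and *Sema4g* were lost without E14.5 mutant 1 or E14.5 mutant 2. *Nrp2* (-0.60) and *Plxnb2* (-0.52) were the remaining genes that fell.

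**Figure D2:**
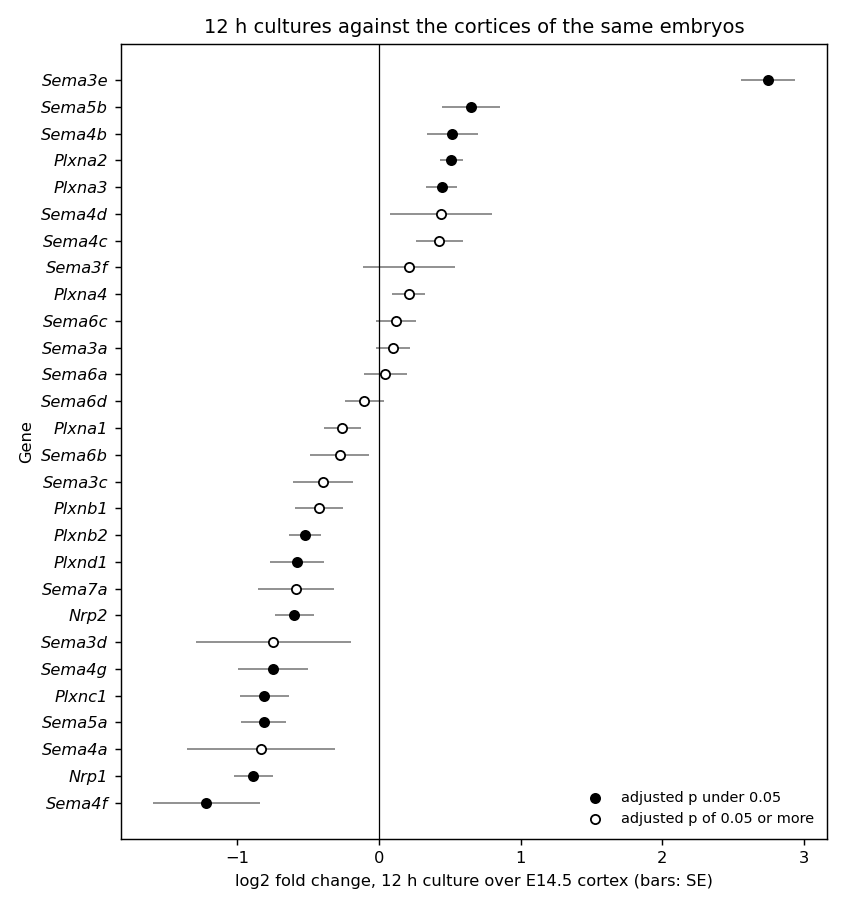
Log2 fold changes of 28 genes between 12 h cultures and E14.5 cortices of the same 6 embryos, sorted by size, with SE bars; filled points passed the threshold. Sema3e stands apart at 2.75, 4 further genes pass on the higher side, and 8 pass on the lower side, from Plxnb2 at -0.52 to Sema4f at -1.22.

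Markers of non-neural cells moved with this comparison. The summed level of 7 endothelial markers was 721.9 to 856.7 in E14.5 cortices and 33.4 to 90.5 in 12 h cultures, with *Emcn* at 0 in the 3 mutant cultures and *Cldn5* at 0 in the 3 control cultures. The 6 meningeal markers went from 1529 to 2571 to 117.8 to 256.2, and the 6 microglial markers from 407.0 to 1012 to 6.31 to 40.9. Neuronal sums overlapped, at 29955 to 42242 and 28373 to 45425, as did the apical progenitor sums, at 9449 to 11292 and 8214 to 11486. Most single progenitor markers did not overlap and were lower in every culture. *Hes5* went from 947.0 to 1367 to 42.5 to 71.2, *Hes1* from 121.9 to 211.8 to 29.9 to 88.7 and *Nes* from 1580 to 2012 to 788.0 to 1097. *Pax6* went from 408.7 to 637.4 to 157.3 to 312.6, and *Slc1a3* from 844.7 to 966.5 to 295.3 to 574.2. *Fabp7* went from 351.2 to 854.1 to 111.7 to 295.6. *Sox2* overlapped, and *Vim* went up from 2890 to 3614 to 4750 to 7007. *Nrp1*, *Nrp2* and *Plxnd1* are expressed by endothelial cells as well as neurons, and the part of these marker shifts in their lower levels was not tested.

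Of the 24 tested effectors 4 were higher and 2 lower in 12 h cultures, beside 14.1% higher and 16.1% lower of all genes. *Mical2*, an actin-oxidizing enzyme gene, went from 5.52 to 20.1 (median 11.1) to 34.0 to 91.6 (median 67.3), a log2 fold change of 2.37 (SE 0.34, adjusted p = 8.2e-05, limma). *Cfl1* (0.40), which encodes the actin-severing cofilin, was higher by less, and the GTPase genes *Rnd1* (-1.98) and *Rnd2* (-0.62) were lower. Of the 12 partners 2 were higher, *Vegfa* (0.89) and *L1cam* (0.33), and 4 were lower. The VEGF receptor genes *Kdr* and *Flt1*, known from endothelial cells, had the largest changes (-4.46 and -4.16), followed by *Erbb2* (-1.96).

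Between 12 h and 24 h of culture 0 of 28 genes passed in limma, and 0 passed in edgeR or DESeq2, while 0.15% of all genes were higher and 0.142% lower. At an unadjusted p under 0.05 there were 3: *Sema3e* (log2 fold change -0.53, adjusted p = 0.264, limma), *Sema6d* (0.36) and *Plxna1* (0.30), beside 9.64% of all genes. *Sema3e* had 125.6 to 227.5 normalized read counts at 24 h, above every E14.5 cortex and overlapping the 12 h cultures.

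The third question was whether the family differed between *Cep135* mutants and controls. In limma 0 genes of the family passed at an adjusted p under 0.05 in E11.5 cortices, E14.5 cortices, 12 h cultures, 24 h cultures or the 12 cortices together. The shares of all genes called there were 0.0149%, 0.0736%, 0%, 0.271% and 0.139%. Before adjustment, 0.05 was undercut by 4 of 29, 4 of 29, 2 of 28, 1 of 28 and 4 of 29 genes, beside 7.39%, 9.1%, 4.85%, 10.6% and 8.71% of all genes. Mutants and controls did not overlap in 5, 3, 2 and 1 genes of the 4 sample kinds, beside 13.3%, 13.7%, 11% and 16.2% of all genes, and in 1 gene at both ages in the same direction, beside 1.33%. The medians of the log2 fold changes lay between -0.13 and -0.000358 in these 5 comparisons. edgeR called 0 in each of them and DESeq2 called 1, *Nrp1* in the 12 cortices. With 3 embryos against 3, the smallest p of an exact permutation test is 0.1, so no single gene could pass that test within a sample kind.

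**Figure D3:**
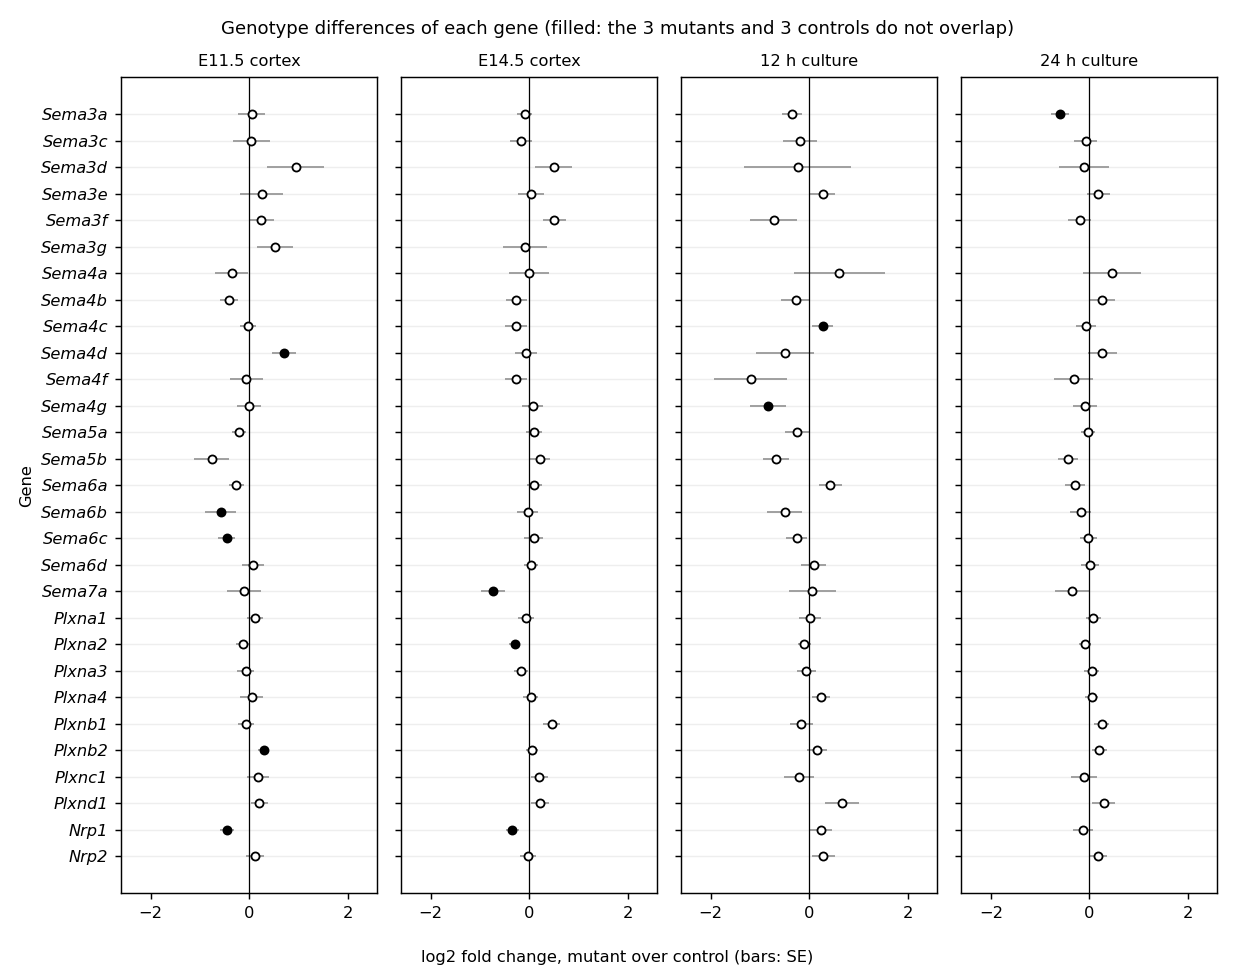
Log2 fold changes of mutants over controls for each tested gene in the 4 sample kinds, with SE bars; filled points are genes whose 3 mutant and 3 control values do not overlap. Nrp1 is filled and below 0 at E11.5 (-0.45) and E14.5 (-0.34), and lies at 0.24 and -0.13 in the cultures.

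*Nrp1* had the smallest p of the family in the 12 cortices. At E11.5 its normalized read counts were 269.1, 284.3 and 265.0 in controls and 187.1, 233.1 and 181.7 in mutants. At E14.5 they were 557.6, 483.4 and 494.3 in controls and 400.8, 427.3 and 379.8 in mutants. Every mutant lay below every control of its age. The log2 fold change was -0.45 (SE 0.14, adjusted p = 0.585, limma) at E11.5, -0.34 (SE 0.13, adjusted p = 0.507, limma) at E14.5 and -0.40 (SE 0.09, adjusted p = 0.143, limma) in the 12 cortices. There *Nrp1* ranked 34 by p among 13650 genes, and an exact permutation test of this 1 gene within age, two-sided, gave p = 0.005, the smallest it can give. That p follows from the separation at both ages and adds nothing to it. It is not adjusted for the choice of *Nrp1* by its smallest p.

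The size of the *Nrp1* difference held between -0.44 and -0.36 under all alternatives, but its call did not: DESeq2 gave an adjusted p of 0.00288, edgeR 0.113, and limma with a term for embryo sex 0.836. In the cultures of the same E14.5 embryos *Nrp1* overlapped between the genotypes. At 12 h the controls had 272.1, 194.9 and 215.6 and the mutants 278.8, 222.0 and 301.9, and at 24 h the controls had 323.6, 207.3 and 248.8 and the mutants 235.7, 266.2 and 202.5. The interaction of genotype and culture (24 h culture against E14.5 cortex) was 0.21 on the log2 scale (SE 0.23, adjusted p = 0.865, limma). For 12 h culture against E14.5 cortex, a test added after the data were seen, it was 0.58 (SE 0.24, unadjusted p = 0.0296, adjusted p = 0.793, limma). Neither passed the threshold. In the same cortices summed marker levels also parted by genotype: neurons at E14.5 were at 29955 to 32084 in mutants and 39456 to 42242 in controls, and 6 ventral telencephalic markers at E11.5 at 935.3 to 1142 and 1345 to 1586. The 6 microglial markers at E14.5 were at 807.3 to 1012 in mutants and 407.0 to 507.4 in controls. Endothelial sums overlapped at each age, at 721.9 to 974.7 in mutants and 734.1 to 972.4 in controls. The part of cell composition in the *Nrp1* values was not tested.

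*Plxna2*, a receptor that pairs with *Nrp1* for secreted semaphorins, and *Sema4b*, a class 4 ligand, had the next smallest p in the 12 cortices. *Plxna2* had 2245, 2419 and 2344 normalized read counts in E14.5 controls and 1863, 1910 and 1949 in mutants, without overlap, and 490.7, 527.7 and 534.8 against 475.4, 546.5 and 407.4 at E11.5, with overlap. Its log2 fold change was -0.21 (SE 0.08, adjusted p = 0.463, limma) in the 12 cortices. *Sema4b* was 0.33 lower on the log2 scale (a fold change of -0.33, SE 0.14, adjusted p = 0.505, limma), with overlap at both ages.

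At E11.5 the other genes with the smallest p were *Sema4d*, a ligand of class B plexins, and *Plxnb2*, a class B plexin. *Sema4d* had 25.2, 23.4 and 24.1 in controls and 39.3, 34.6 and 48.3 in mutants, a log2 fold change of 0.71 (SE 0.24, adjusted p = 0.612, limma). *Plxnb2* had 730.6, 644.8 and 664.6 in controls and 855.4, 809.8 and 833.6 in mutants, a log2 fold change of 0.29 (SE 0.10, adjusted p = 0.612, limma). Mutants of both genes lay above all controls at E11.5, and mutants of *Sema6b* and *Sema6c* lay below all controls (log2 fold changes -0.57 and -0.45). At E14.5 both overlapped, and the interaction of genotype and age was -0.78 for *Sema4d* and -0.24 for *Plxnb2* (adjusted p = 0.620 and 0.665, limma).

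At E14.5 *Sema7a* came first, with 96.5, 95.1 and 62.8 in controls and 39.5, 58.5 and 53.2 in mutants. The log2 fold change was -0.73 (SE 0.24, adjusted p = 0.471, limma) with no overlap, beside the lower neuron sum of the same mutants, while at E11.5 it was -0.10 with overlap. *Plxnb1* had 381.2, 435.5 and 573.6 in controls and 723.8, 533.3 and 642.9 in mutants, which overlapped, and its log2 fold change was 0.46 (SE 0.18, adjusted p = 0.507, limma).

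In 12 h cultures *Sema5b* (-0.68, SE 0.26), *Sema4g* (-0.85, SE 0.37) and *Plxnd1* (0.66, SE 0.34) had the smallest p, each with an adjusted p of 0.913 (limma). *Sema5b* had 552.1, 307.6 and 395.5 in controls and 279.8, 310.4 and 189.0 in mutants, which overlapped. *Sema4g* had 138.4, 160.9 and 151.8 in controls and 108.2, 117.8 and 44.8 in mutants, which did not, and with a term for embryo sex it passed (log2 fold change -1.72, adjusted p = 0.0422, limma). All 3 control cultures came from male embryos and 2 of the 3 mutant ones from females, so that fit compares the genotypes through 1 male mutant. *Plxnd1* had 96.0, 58.7 and 66.0 in controls and 141.4, 128.4 and 81.5 in mutants, with overlap. With the sex term its log2 fold change was 0.18, and that of *Sema5b* was -1.10.

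In 24 h cultures *Sema3a* had the smallest p of the family. Controls had 398.7, 401.1 and 410.1 normalized read counts and mutants 267.3, 337.0 and 209.5, so that all mutants were lower. The log2 fold change was -0.60 (SE 0.18, adjusted p = 0.214, limma), and -0.56 with an adjusted p of 0.939 when the share of reads on the gene *Gm42418* was a term. At 12 h the controls had 382.2, 403.9 and 317.3 and the mutants 272.0, 322.0 and 270.5, with overlap. *Sema5b* (-0.43, adjusted p = 0.484, limma) had 286.7, 318.5 and 411.3 in controls and 212.1, 218.6 and 333.5 in mutants. *Plxnb1* (0.25, adjusted p = 0.6005, limma) had 402.8, 443.2 and 455.1 in controls and 552.5, 565.8 and 435.6 in mutants. Both overlapped. With a term for embryo sex the log2 fold changes became -0.94 for *Sema3a*, -0.0062 for *Sema5b* and 0.0084 for *Plxnb1*.

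**Figure D4:**
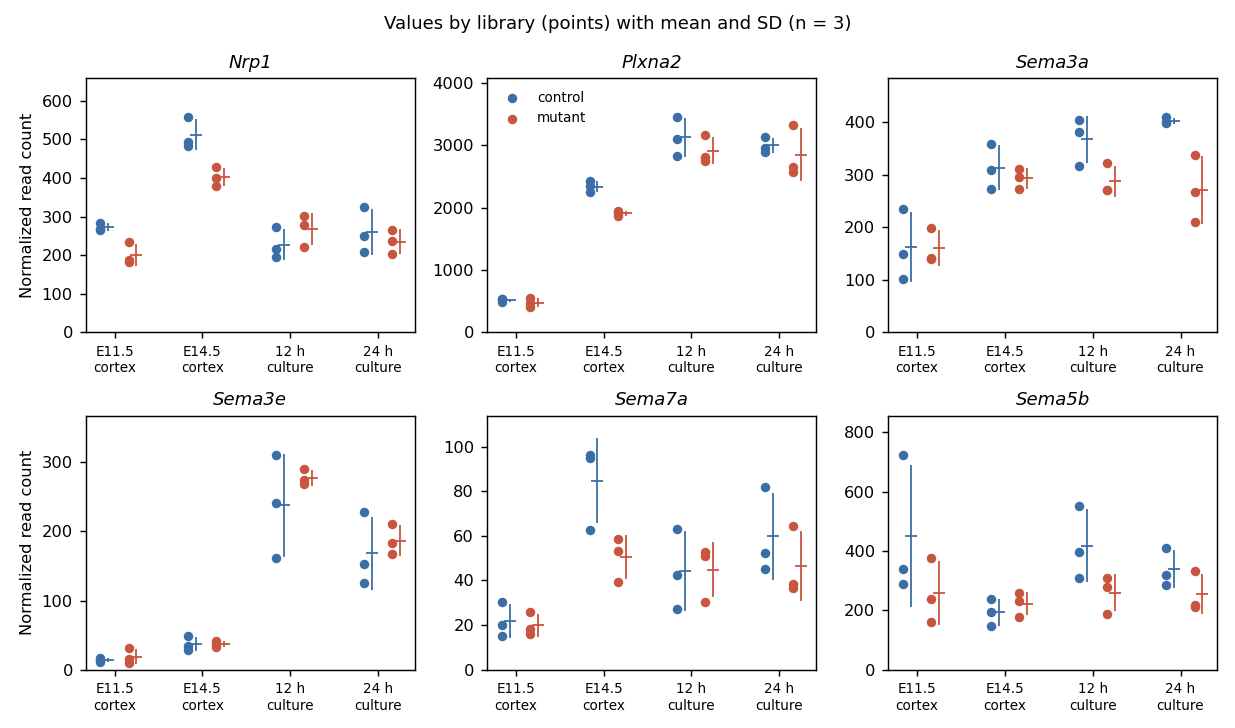
Normalized read counts of 6 genes by sample kind, with 1 point per library (blue, control; red, mutant) and the group mean with SD (n = 3). Nrp1 mutants lie below the controls in both cortex panels only, Sema3a mutants lie below the controls at 24 h, and Sema3e is at 161.7 to 311.2 in 12 h cultures against 28.8 to 48.2 in E14.5 cortices.

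Whether genotype effects differed between ages, between 24 h culture and cortex or between culture times was tested by interaction terms. In limma 0 genes of the family passed in any of the 3, as did 0%, 0% and 0% of all genes, and edgeR and DESeq2 also called 0. At an unadjusted p under 0.05 there was 1 gene in each, beside 7.84%, 6.16% and 2.38% of all genes: *Sema4d* by age, *Sema3a* by culture (-0.51, adjusted p = 0.786, limma) and *Sema6a* by culture time (-0.72, SE 0.34).

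Among the effectors and partners tested, 1 gene passed in a genotype comparison. That was in 24 h cultures, with 23 effectors and 11 partners tested, beside 0.271% of all genes called. *Chl1*, a neural adhesion molecule that joins *Nrp1* in the response to *Sema3a*, had 3282, 3455 and 3082 normalized read counts in 24 h control cultures and 1872, 2075 and 2087 in mutants. Its log2 fold change was -0.70 (SE 0.11, adjusted p = 0.0166, limma). At 24 h the share of reads on *Gm42418* also parted the genotypes, at 20.52% to 23.0% in mutants and 6.26% to 13.9% in controls. In fits added after the data were seen, edgeR (adjusted p = 0.0247) and DESeq2 (adjusted p = 1.02e-05) kept the *Chl1* call, and limma lost it with a term for this share (log2 fold change -0.79, adjusted p = 0.939) or for embryo sex (-0.80, adjusted p = 0.0958). It was also lost in limma without control 3, control 5, mutant 2 or mutant 6, with adjusted p-values of 0.0556 to 0.116. The genotypes did not overlap at 12 h (-0.63, SE 0.14, adjusted p = 0.723, limma) or in E14.5 cortices (-0.54, SE 0.16, adjusted p = 0.408, limma) either, from the same embryos, and overlapped at E11.5 (-0.04). Of all genes, 11% did not overlap at 12 h and 13.7% did not overlap in E14.5 cortices. At 24 h the summed neuron level was 28055 to 35148 in mutants and 34986 to 42180 in controls, which overlapped. The summed apical progenitor level was 12079 to 13277 in mutants and 9389 to 10593 in controls. *Vim* was the largest part of that sum, with means of 8398 in mutants and 6110 in controls. *Sox2* went slightly the other way, with means of 1824 and 1872, and the other progenitor markers had higher means in mutants. The summed liver marker level did not overlap between the genotypes at 24 h, at 98.9 to 312.5 in mutants and 1.69 to 6.83 in controls. The part of these shifts in the *Chl1* and *Sema3a* values was not tested.

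In GENCODE vM21 (GRCm38) *Plxna4* lies on chromosome 6 from 32144268 to 32588192, *Plxna2* on chromosome 1 from 194618218 to 194816869, *Nrp1* on chromosome 8 from 128358604 to 128503363, and *Sema3e* on chromosome 5 from 14025276 to 14256689. For 0 of the 31 genes did an exon of another gene on the same strand cover the last 1000 bases, where 3′ reads fall.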

How the data were processed

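RNA from cortices and neurosphere cultures was sequenced with QuantSeq 3′ libraries, which keep the strand. Per the labels, the authors used TopHat2 (2.0.10), Bowtie (1.0.0), SAMtools (0.1.19), FastQC (0.11.7) and HTSeq (0.6.1) on GRCm38, and the study counted on GENCODE vM20 genes. The authors deposited a signal table, in which read counts of each library were divided by its size factor. All 484666 values above 0 in the 24 libraries came to a whole number of reads (tolerance 1e-06) once divided by their library's step, and these reads served edgeR and DESeq2. No column was left unused.

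Values were tested on the log2(value + 1) scale with limma 3.58.1 (R 4.3.3) and an intensity trend, and genes were kept when their mean reached 10 over the samples of a comparison. Fold changes on this scale understate changes of low genes. Benjamini-Hochberg adjustment covered all genes tested, with a threshold of 0.05. Single genes were tested by exact permutation. Alternatives included edgeR 4.0.16, DESeq2 1.42.0, other pseudocounts, filters and scalings, terms for sex, litter (from label prefixes), embryo and *Gm42418*, and leaving out each library. The titles of E11.5 mutants B and C carried the prefix of controls E and F, while their column names differed from it in a letter. The titles were followed for the litter. The code was tested on simulated data. Cortex and cultures with the same number came from the same embryo per the labels, and their deviations correlated at -0.11 to 0.24 over 18 pairs (median 0.14).

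The genes and lists were chosen with earlier results of these data known. Named in full are, for genotype, genes past the threshold and the 3 with the smallest p, for age and culture up to 5 genes in each direction by size, and up to 3 of each pathway list in each direction; *Sema6c*, *Sema3a* and others are named for their class. Precision is limited by 3 embryos per group. Within a sample kind and for age, p-values measure the spread between embryos. In comparisons across cortex and culture or across culture times, the main fits treated libraries of the same embryo as independent. The embryo as a block was an alternative there. Promoters came from RefSeq (GRCm38.p6), and gene positions from GENCODE vM21. An item withheld for evaluation is not reported here. The label of 1 E14.5 mutant cortex gives both ages, and its title was followed.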

Additional observations from a re-analysis of the deposited data

How the results depend on the processing

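Of the genotype differences given as values in the text, 3 changed sign with a term for embryo sex or *Gm42418*: in 24 h cultures *Sema5b* came to 0.0078 and *Nrp1* to 0.13 on the log2 scale with the *Gm42418* term, and *Sema7a* at E11.5 came to 0.0069 with the sex term. Other differences drawn only in the plot of genotype effects also changed sign with these terms. The count of genes called for genotype rose from 0 to 1 with a term for embryo sex at 12 h (*Sema4g*) and with DESeq2 in the 12 cortices (*Nrp1*). The count for 12 h cultures against cortices was 8 to 14 when 1 library was left out, lowest without E14.5 mutant 2, and 13 with the embryo as a replicate block, which changed no call of the family in the paired comparisons. For age the count was 17 to 19 with 1 library left out and 14 with a mean of at least 50. That filter left *Sema3e*, *Sema4d*, *Sema4f* and *Sema7a* untested, since their means over the 12 cortices lay under 50. The cause of the other changes was not tested. Precision rests on 3 embryos per group.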
